A study of Mus musculus with 2 samples.

Results

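SR proteins are splicing factors that bind short enhancer sequences in exons through RNA recognition motifs and recruit the spliceosome through a tail rich in arginine and serine, the RS domain. Kinases of the SRPK and CLK families phosphorylate that tail, which controls where in the cell an SR protein resides and whether it can act. Many SR genes are known to limit their own output. In some of them, excess protein promotes inclusion of an exon with an early stop codon, and the resulting transcript is removed by nonsense-mediated decay. In mice, germ cells that lack Srsf1 or Srsf10 are known to fail in spermatogenesis.

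The 10 genes described here are the SR genes Srsf1 to Srsf7 and Srsf9 to Srsf11, chosen by their gene IDs among the 44002 rows of the deposited table. All 10 passed the floor of 1 CPM (reads scaled to the total of a library) in the higher library, as did 19389 genes in all. At postnatal day 45, testes were taken from BALB/c mice exposed to bisphenol A (BPA), an estrogen-like compound of plastics, and from BALB/c mice with no treatment label, taken here as the control. In each group the material of 3 samples was mixed and sequenced as 1 library of poly(A) RNA, so all differences stand without replicates. The sources used here give no dose, route or duration of exposure. In the text, BPA testes and control testes mean these pooled libraries.

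The family is defined by its RS domain, so the serine and arginine codons shown here describe the members and test nothing. The longest run of strictly alternating serine and arginine codons in the longest coding transcript of each gene is shown because it marks that domain. The runs come from GENCODE M21 on GRCm38, read 5′ to 3′, with arginine codons in capitals and serine codons in lower case.

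Srsf1: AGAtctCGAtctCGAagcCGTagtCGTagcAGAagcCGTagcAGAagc
Srsf2: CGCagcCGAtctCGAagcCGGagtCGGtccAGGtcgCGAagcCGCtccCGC
Srsf3: tctAGGtctCGTagcCGAtctAGGtca
Srsf4: tcaAGGtctCGCtctCGAagcAGA
Srsf5: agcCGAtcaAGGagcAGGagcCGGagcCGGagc
Srsf6: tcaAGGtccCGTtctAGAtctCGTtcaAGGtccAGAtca
Srsf7: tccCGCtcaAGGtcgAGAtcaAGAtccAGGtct
Srsf9: tcaCGGtcgCGGtct
Srsf10: CGCtctCGAagcCGGagt
Srsf11: tcgAGAtcaAGAtctCGCtcgAGG

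The run was longest in Srsf2, at 17 codons, and in Srsf1, at 16 codons. It was shortest in Srsf9, at 5 codons, and in Srsf10, at 6 codons. A run of 8 codons or more was present in 8 of the 10 members, against 0.182% of 21372 coding genes read the same way, whose median run was 2 codons. Counted over the whole coding sequence, adjacent serine and arginine codons numbered 106 pairs in Srsf4, the gene with the most, and 9 pairs in Srsf9, the gene with the fewest. Transcripts annotated as targets of nonsense-mediated decay were present for 9 of the 10 members, all but Srsf10, against 20.8% of 22028 protein-coding genes. The deposited value of a gene sums over its transcripts, so productive and decay-prone forms of these genes cannot be told apart.

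The SR family as a whole stood at nearly the same level in both libraries. Its 10 genes summed to 709.95 CPM in BPA testes (32216 reads) and 718.51 CPM in control testes (30035 reads), a ratio of 0.988 with an exact 95% counting interval of 0.973 to 1.004. The counting intervals here cover the sampling of reads only, since PCR copies are not independent molecules. Of the 10 members, 5 lay above and 5 below a log2 ratio of 0, with a median of 0.01, against a median of 0.00406 over all genes at the floor. None of the 10 was 2-fold apart, where 3.28% of all genes at the floor were, 1.32% higher and 1.95% lower in BPA testes. At 1.5-fold the count was also 0, with 9.64% of all genes beyond that fold. At a difference of 25% or more, taken on the lower value, it was 1, Srsf1, with 23.4% of all genes beyond it. Shares are lower among genes at levels like those of the members. At a mean of 10 to 100 CPM, as for 8 members, 7.93% differed by 25% or more and 2.05% by 1.5-fold. At 100 CPM or more, as for the other 2, 1.29% differed by 25% or more. With a floor of 10 CPM, 0.927% of genes were 2-fold apart. In bulk testis, fewer cells of a type and less RNA per cell cannot be told apart.

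**Figure D1:**
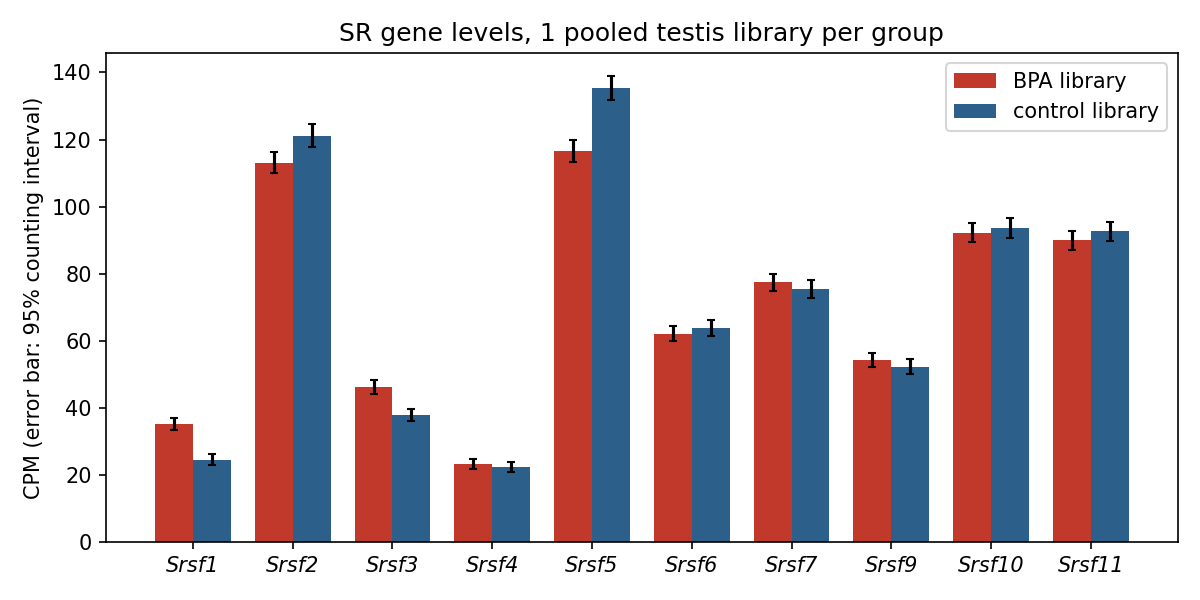
Bars give the level of each SR gene in CPM in BPA testes (red) and control testes (blue), and error bars are 95% counting intervals of the reads. The bars of Srsf1 and Srsf3 are taller in BPA testes, those of Srsf5 and Srsf2 are taller in control testes, and the other bars nearly match.

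Srsf1, which binds purine-rich exonic enhancers and promotes the use of nearby 5′ splice sites, differed most. It stood at 35.1 CPM (1592 reads) in BPA testes and 24.5 CPM (1026 reads) in control testes, 1.43-fold higher with a counting interval of 1.32 to 1.55. The counting intervals of the 2 levels were 33.4 to 36.9 CPM in BPA testes and 23.1 to 26.1 CPM in control testes. Srsf1 belongs to the 7578 genes with a mean between 10 and 100 CPM, of which 7.93% differed by 25% or more and 2.05% were 1.5-fold or more apart. The gene (ID 110809) spans chromosome 11 from 88046499 to 88053757 on GRCm38.

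Srsf3, the shortest SR protein and an adaptor for mRNA export, was next. It stood at 46.2 CPM (2095 reads) in BPA testes and 37.8 CPM (1582 reads) in control testes, 1.22-fold higher with an interval of 1.14 to 1.30. Its close relative Srsf7, which also serves in export and carries a zinc knuckle, stood at 77.4 CPM in BPA testes and 75.4 CPM in control testes. Its ratio of 1.03 (0.979 to 1.08) has an interval that lies below that of Srsf3. Srsf3 (ID 20383) lies on chromosome 17 from 29032660 to 29043372, and Srsf7 (ID 225027) on the same chromosome from 80200080 to 80207369. Of the 50-base words in Srsf3 transcripts, 10.04% also occur in transcripts of other loci, most of them in Gm12355 and Gm9761, so the source of part of its reads is uncertain.

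The members with the highest CPM, not divided by length, were lower in BPA testes. Srsf5, a member with a pair of RNA recognition motifs, stood at 116.5 CPM (5288 reads) in BPA testes and 135.3 CPM (5655 reads) in control testes, a ratio of 0.861 (0.830 to 0.894). Srsf2, a nuclear SR protein that also acts in transcription elongation, stood at 113.1 CPM (5131 reads) in BPA testes and 121.1 CPM (5063 reads) in control testes, a ratio of 0.934 (0.898 to 0.971). These are the only members with a mean of 100 CPM or more, a class of 2401 genes in which 1.29% differed by 25% or more.

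Reads of both genes carry a limit of annotation. Srsf5 shares 10.1% of its words with other loci, mainly Gm12966, which went the other way at 4.56 CPM in BPA testes and 2.03 CPM in control testes. Srsf5 and Gm12966 added together gave a ratio of 0.882 (0.850 to 0.915). Exons of Srsf2 overlap those of Mfsd11 and Mettl23 on the opposite strand, over 9.74% and 15.6% of the Srsf2 exon length, and reads there cannot be assigned to 1 partner without strand. Mfsd11 stood at 132.0 CPM in BPA testes and 146.8 CPM in control testes, a ratio of 0.899 (0.868 to 0.932), and Mettl23 at 15.8 CPM in BPA testes and 14.4 CPM in control testes. The part of these overlaps in the Srsf2 value was not tested.

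The remaining 6 members had intervals that include a ratio of 1, with ratios between 0.971 and 1.04. Srsf10, which turns into a splicing repressor when dephosphorylated, stood at 92.2 CPM in BPA testes and 93.6 CPM in control testes (ratio 0.985, 0.943 to 1.03). Srsf11, a divergent family member, stood at 89.9 CPM in BPA testes and 92.6 CPM in control testes (0.971, 0.929 to 1.02). Srsf6 had 62.1 CPM in BPA testes and 63.7 CPM in control testes (0.975, 0.925 to 1.03). Both levels of each of these genes lay within 3% of each other, and Srsf9 and Srsf4 differed by little more.

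Srsf9, which has the shortest alternating run, stood at 54.2 CPM in BPA testes and 52.2 CPM in control testes (1.04, 0.980 to 1.10). Srsf4, which has the most serine and arginine codon pairs, stood at 23.2 CPM in BPA testes and 22.3 CPM in control testes (1.04, 0.953 to 1.14). Exons of Srsf4 are overlapped over 43.02% of their length by Gm12992 on the opposite strand, which was listed at 2.93 CPM in BPA testes and 2.77 CPM in control testes. Of the words of Srsf10, 10.3% occur at other loci.

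Intervals that leave out a ratio of 1 were found for 4 of the 10 members, Srsf1, Srsf2, Srsf3 and Srsf5, and for 43.1% of all genes at the floor. At these depths such an interval is common, and the members' share is near that of all genes. Limits of a q-value under 0.005 and a log2 fold change above 1 in size were applied to the authors' deposited values. They were met by none of the 10 members and by 0.0956% of the genes with a q-value. The largest deposited log2 fold change of a member in size was 0.515, so none could pass the fold limit. In the authors' deposited table the smallest p-value of a member is 0.168 for Srsf1, followed by 0.245 for Srsf5 and 0.357 for Srsf3, and the q-value is 0.99996 for all 10.

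**Figure D2:**
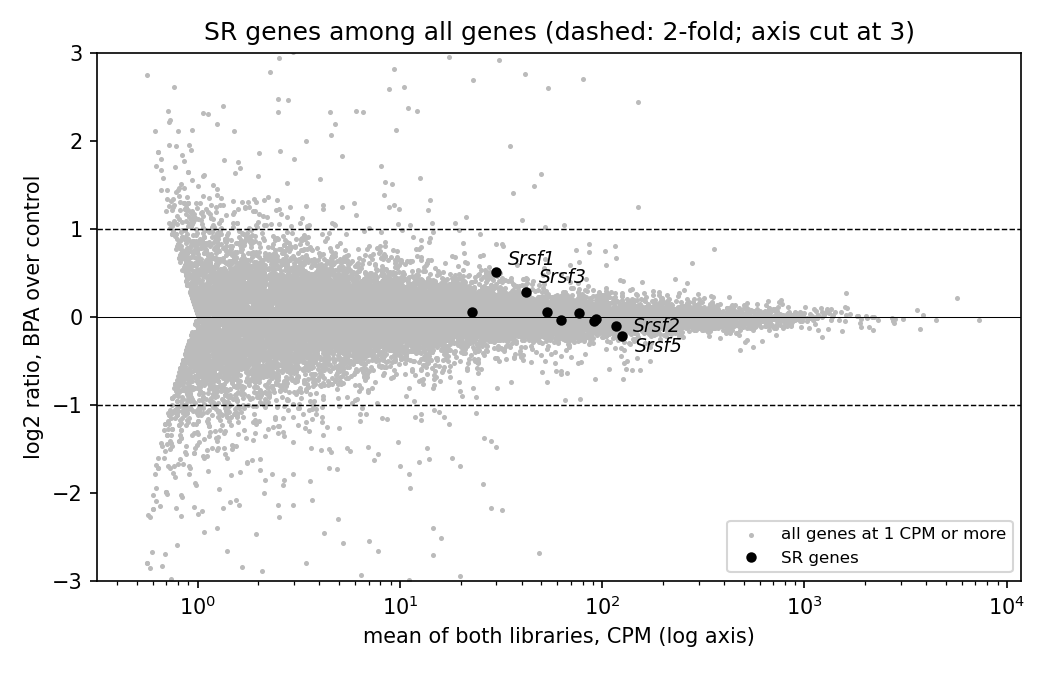
Each point is a gene at 1 CPM or more, with the mean of both libraries in CPM on a log axis and the log2 ratio of BPA over control on the vertical axis; SR genes are black and dashed lines mark 2-fold. All SR genes lie inside the dashed lines, with Srsf1 at 0.51 and Srsf5 at -0.22 at the ends; 52 genes lie beyond the cut of the vertical axis.

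Shares within the family need no scaling between the libraries. Srsf1 made up 4.94% of the SR reads in BPA testes (4.71 to 5.18%, exact Clopper-Pearson) and 3.42% in control testes (3.21 to 3.63%). Srsf5 made up 16.4% in BPA testes (16.01 to 16.8%) and 18.8% in control testes (18.4 to 19.3%). There were 3.32 reads of Srsf5 for each read of Srsf1 in BPA testes and 5.51 in control testes. These genes are the members with the lowest and the highest ratio, so no other pair can differ more between the libraries. Together Srsf1 and Srsf3, picked as the members with the highest ratios, held 11.4% of the SR reads in BPA testes and 8.68% in control testes.

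Levels of different genes were compared per kilobase of merged exon length. On that scale Srsf2 was the most abundant member, at 38.2 CPM per kilobase in BPA testes and 40.9 in control testes. Srsf9 had 32.8 CPM per kilobase in BPA testes and 31.6 in control testes, and Srsf5 had 29.2 in BPA testes and 33.9 in control testes, so their order differs between the libraries. Srsf7 followed with 21.8 CPM per kilobase in BPA testes and 21.2 in control testes.

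Srsf10 and Srsf6 were close neighbours in this order, at 13.2 and 12.9 CPM per kilobase in BPA testes and 13.4 and 13.2 in control testes. Srsf11 came next with 10.6 CPM per kilobase in BPA testes and 10.96 in control testes. The lowest were Srsf4 at 6.52, Srsf1 at 6.14 and Srsf3 at 5.84 CPM per kilobase in BPA testes, against 6.26, 4.30 and 4.79 for the same genes in control testes. Srsf1 and Srsf3 also exchanged places, Srsf1 being last in control testes only.

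The order depends on the length used; the merged exon length holds untranslated and retained-intron parts that the coding length leaves out. Per kilobase of coding length Srsf2 stayed first, at 170.5 CPM per kilobase in BPA testes and 182.7 in control testes, and Srsf5 was second at 143.9 in BPA testes and 167.01 in control testes. Srsf3 had 93.8 CPM per kilobase of coding length in BPA testes and 76.9 in control testes, in the middle of the family. Srsf4 was last on that scale, at 15.8 in BPA testes and 15.1 in control testes. Between the libraries 6 of 10 members held the same place per merged exon length and 8 of 10 per coding length. The exon overlaps of Srsf2 and Srsf4 and the shared words of Srsf3, Srsf5 and Srsf10 given above may also affect these orders. Their part was not tested.

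**Figure D3:**
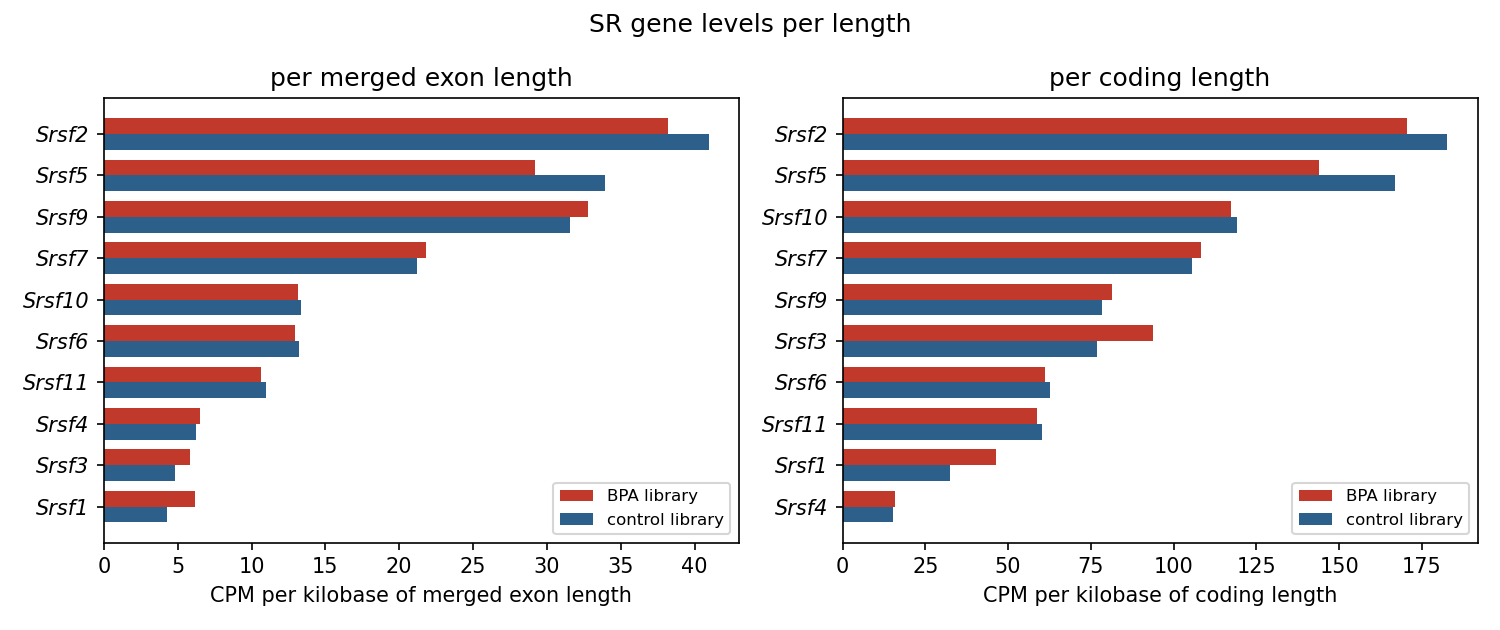
Horizontal bars give CPM per kilobase of merged exon length (left) and of coding length (right) for each SR gene, BPA library in red above control library in blue, with genes sorted by control testes. Srsf2 leads on both scales, while Srsf3 is near the bottom per merged exon length and in the middle per coding length.

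The surroundings of the members on the chromosome were compared next, through all genes at the floor whose left end lies within 1 Mb of that of a member. Near Srsf1, 5 of 25 genes were 2-fold or more apart (20.0%), 3 higher and 2 lower in BPA testes; within 2 Mb it was 5 of 42 (11.9%). Near Srsf3, 8 of 35 were (22.9%), 5 higher and 3 lower, and within 2 Mb 11 of 55 (20.0%). Near the other 8 members together it was 2 of 231 (0.866%), and over all genes 3.28%. All 10 members undivided gave 15 of 291 (5.15%). Srsf1 and Srsf3 were set apart with their values in these same data already seen. The gap for the other 8 members depends on the setting: at 1.5-fold it was 6.93% against 9.64% of all genes, and with listed zeros as 0 it was 7.79% against 8.37%. Srsf5 and Srsf2, whose intervals also leave out a ratio of 1, had 1 of 24 and 0 of 52 neighbours 2-fold apart. The 2-fold different genes near Srsf1 and Srsf3 went in both directions. A link between the ratio of a member and its neighbours was not tested.

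The 3 nearest 2-fold different genes to Srsf1 all lay at higher coordinates of chromosome 11 and were higher in BPA testes. Cuedc1, 52.6 kb away, stood at 2.18 CPM (99 reads) in BPA testes and 0.813 CPM (34 reads) in control testes. It was 2.68-fold higher (1.80 to 4.09), with a control value listed as 0 and filled from the deposited fold change. Mrps23, a mitochondrial ribosomal protein gene 148 kb away, stood at 15.2 CPM in BPA testes and 7.27 CPM in control testes, 2.08-fold higher (1.82 to 2.39). Ccdc182, 248 kb away, stood at 13.2 CPM in BPA testes and 6.29 CPM in control testes, 2.10-fold higher (1.82 to 2.44). The genes that flank Srsf1 most closely lay within 2-fold: Vezf1 had 4.30 CPM in BPA testes and 3.47 CPM in control testes, and Dynll2 had 456.5 CPM in BPA testes and 389.0 CPM in control testes.

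Around Srsf3 the nearest 2-fold different genes were Cpne5, Srpk1 and Armc12. Cpne5, 124 kb away, stood at 9.39 CPM in BPA testes and 4.62 CPM in control testes, 2.03-fold higher (1.71 to 2.42). Srpk1, a kinase that phosphorylates SR proteins, lies 445 kb from Srsf3 and stood at 87.5 CPM in BPA testes and 42.3 CPM in control testes. Armc12, needed for the mitochondrial sheath of sperm, lies 502 kb away and stood at 3.15 CPM in BPA testes and 90.7 CPM in control testes, 28.8-fold lower (24.3 to 34.2). The closest flanking genes did not differ 2-fold: Stk38 had 15.3 CPM in BPA testes and 15.9 CPM in control testes, and Cdkn1a had 10.05 CPM in BPA testes and 10.6 CPM in control testes.

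With a floor of 10 CPM, set after the data were seen, 3 of 15 genes near Srsf1 and 4 of 18 near Srsf3 were 2-fold apart, against 0 of 139 near the other 8 members and 0.927% of all such genes. Of 9 members with at least 10 neighbours at the floor of 1 CPM, 2 had 15% or more of them 2-fold apart, a limit also set after the data were seen. Over all 15116 genes with that many neighbours, 3.29% did. The 15% limit lies below the shares already seen near Srsf1 and Srsf3, so the count of 2 was fixed by that choice. No conclusion is drawn from it, and the windows of nearby genes overlap. Within 0.5 Mb the count near Srsf3 was 2 of 21, so most of its 2-fold different neighbours lie farther out. The part of these surroundings in the values of Srsf1 and Srsf3 was not tested.

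**Figure D4:**
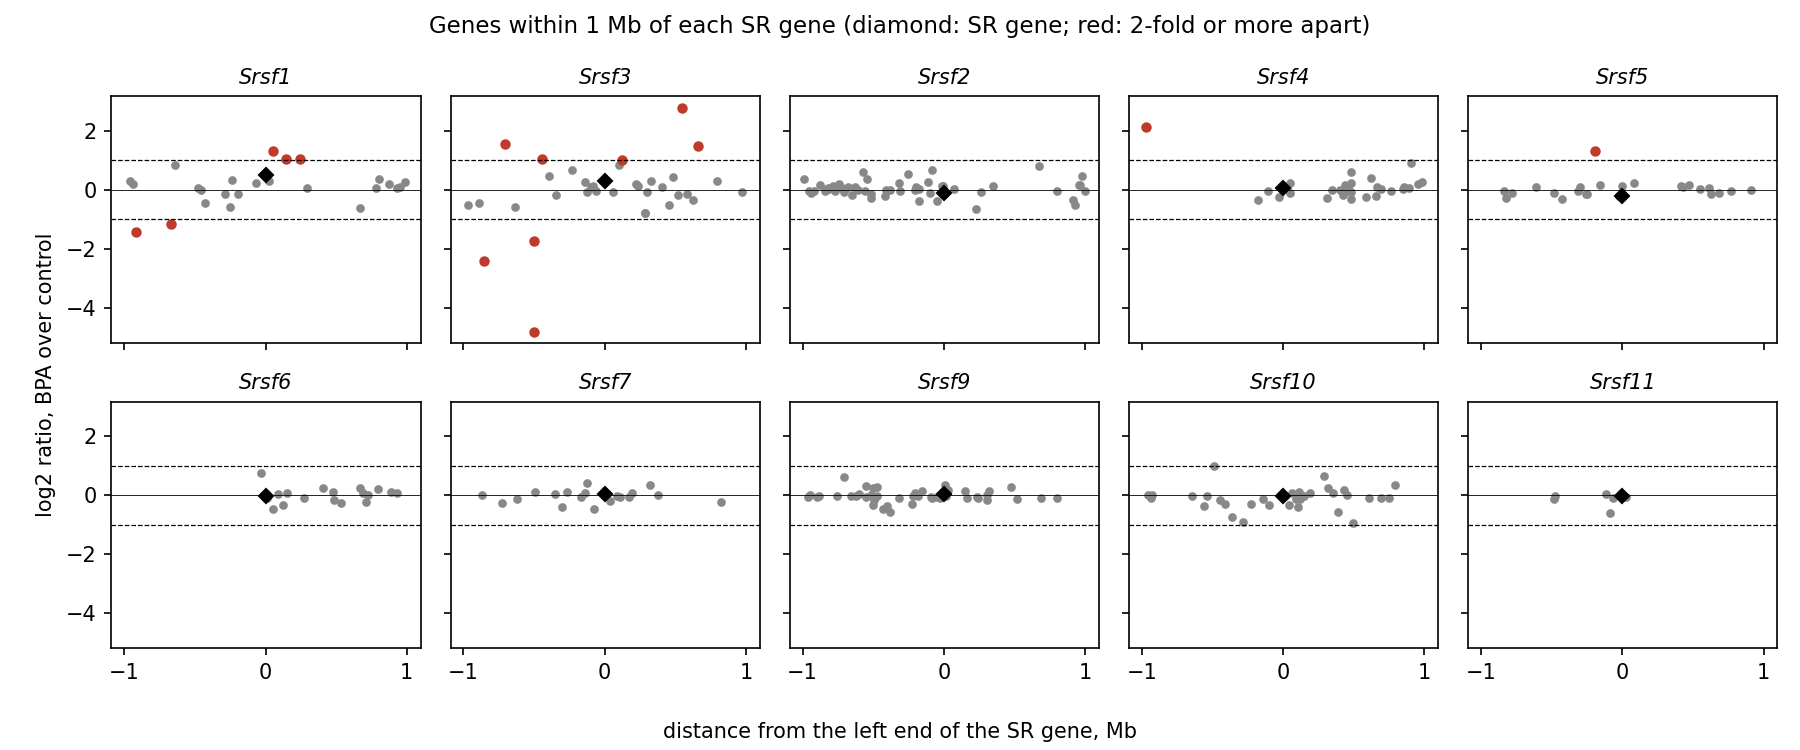
Each panel shows the genes within 1 Mb of an SR gene, with the distance between left ends in Mb across and the log2 ratio of BPA over control upward; the diamond is the SR gene, red points are 2-fold or more apart and dashed lines mark 2-fold. Red points number 5 near Srsf1 and 8 near Srsf3, and 2 in the other 8 panels together.

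Partners of the SR proteins in splicing were read in the same way. Of 31 other SR-related and RS domain genes at the floor, 0 were 2-fold apart, where 3.28% of all genes at the floor were, and the median log2 ratio was -0.02. In a list of this size a count of 0 is near that share. The members of that list with the largest log2 ratios were Scaf11 (0.18), Cwc27 (0.17), the cyclophilin gene Nktr (-0.17) and Snrnp70 (-0.16), which encodes the U1 snRNP protein that contacts SR proteins. Srsf12, a related gene outside the 10, was scarce, at 1.56 CPM in BPA testes and 1.46 CPM in control testes. Tra2b, an SR-like activator of exons, stood at 148.9 CPM in BPA testes and 141.0 CPM in control testes, and Tra2a at 50.2 CPM in BPA testes and 50.1 CPM in control testes.

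Among 13 genes for SR protein kinases, phosphatases and nuclear import at the floor, 1 was 2-fold higher in BPA testes, Srpk1, and none was lower, against 1.32% of all genes higher and 1.95% lower. Their median log2 ratio was 0.05. Srpk2, the paralog of Srpk1, stood at 485 CPM in BPA testes and 468 CPM in control testes, and Tnpo3, the importin of SR proteins, at 60.4 CPM in BPA testes and 55.0 CPM in control testes. Clk2 (log2 ratio 0.25), Prpf4b (-0.20) and Ppp1r8 (0.19) lay within 2-fold. Ppp1ca and Srpk3 were listed at 0 in both libraries; since Ppp1ca is used by most cells, a listed 0 may be a failed count.

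Among 28 hnRNP genes and related repressors, which often oppose SR proteins on exons, 1 was 2-fold lower, Hnrnpu, at 13.1 CPM in BPA testes and 84.6 CPM in control testes. None was higher, and 1.95% of all genes were lower and 1.32% higher. Their median log2 ratio was 0.00134. Hnrnpa0 (log2 ratio -0.21), Ptbp3 (0.19) and Hnrnpab (-0.18) lay within 2-fold. Of 24 genes for mRNA export and nonsense-mediated decay, 0 were 2-fold apart, against 3.28% of all genes, with a median of -0.01 and the largest ratios in Thoc2 (0.32), the export receptor Nxf1 (-0.18), Magohb (-0.17) and Upf3b (0.14).

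Markers of the labelled tissue were abundant: elongating spermatid markers summed to 19236 CPM in BPA testes and 18033 CPM in control testes, and spermatocyte markers to 3186 CPM in BPA testes and 3149 CPM in control testes. Of 12 marker lists, 11 had genes at the floor, and 10 of these held no gene 2-fold apart. No list holds more than 10 genes, and 3.28% of all genes were 2-fold apart, so a count of 0 is near that share. Among adipocyte markers 6 of 8 were 2-fold lower, against 1.95% of all genes, with sums of 27.0 CPM in BPA testes and 85.2 CPM in control testes. Sertoli markers summed to 1267 CPM in BPA testes and 1128 CPM in control testes. Median log2 ratios were 0.19 for Sertoli, 0.13 for Leydig and 0.12 for peritubular markers. For macrophage, endothelial and blood markers they were 0.01, -0.03 and -0.04. Of 7 epididymal markers 5 were listed at 0 and the other 2 carried no value; as Ppp1ca and Ddx39b are also listed at 0, this does not show low expression. The part of these cell types in the SR values was not tested. The listed values stand for 45162887 reads in BPA testes and 41711330 in control testes.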

How the data were processed

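HTSeq 0.6.1, HISAT2 2.0.4 and build mm10 are named in the submitters' processing notes; the annotation, strand setting and scaling were not stated there. The authors deposited 1 value per library headed as a read count, but the deposited values are CPM, with values under 1 written as 0. Beside them stand the authors' p-value, q-value and log2 fold change of each gene. Each deposited CPM value is a whole multiple of a step fixed for its library (largest gap 2.33e-10 steps), and that step was taken as 1 read. Where 1 library was listed at 0, its value was filled from the deposited fold change (812 in BPA, 592 in control). The log2 ratio used a pseudocount of 0.1 CPM. Ratios beside a gene hold no pseudocount and carry exact 95% intervals (scipy 1.17.1). With 1 library per group no test between conditions and no count model was run. The members and lists were chosen with earlier results of these data known. All 10 members are named, with up to 4 genes of the largest log2 ratio in size per list and up to 3 nearest 2-fold different genes per member. Other genes named (Srsf12, Tra2a, Tra2b, Srpk2, Tnpo3, overlapping, word-sharing and flanking genes) were chosen after their values were seen. With 2 libraries, no likeness of pattern between genes can be ranked. Positions are RefSeq's on GRCm38.p6, the build that mm10 names; lengths, transcripts and 50-base words are GENCODE's. Of 41571 numeric gene IDs, 40269 matched a symbol.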

Additional observations from a re-analysis of the deposited data

How the results depend on the processing

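No paired analysis was possible because each group has 1 library, and for the same reason no replicate could be left out. Under 3 other scalings, pseudocounts of 1 and 0.01 CPM and no floor, all 60 recomputed log2 ratios of the members stayed inside their counting intervals, with a largest shift of 0.0153. Dropping the floor cannot change a member's ratio, and the 3 scaling factors were 1.002, 1.003 and 0.998. At the levels of these genes such settings could move the ratios very little. The 29 recomputed share ratios (coding length, no length, and without Srsf1) lay close to the main ones. For Srsf1 the share ratio was 1.46 per merged exon length, 1.43 per coding length and 1.45 with no length. A gene's own length cancels in its share ratio, so these settings only rescale all members alike. The count of members 2-fold apart was 0 under every scaling, pseudocount and floor tried and at 1.5-fold, and 1 at a difference of 25%. The count of members that met the limits set on the authors' deposited values stayed at 0 at a q-value limit of 0.05. Counts in the other splicing lists stayed the same under the alternatives run, which included 1.5-fold.

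Counts of 2-fold different neighbours follow the window, the fold and the floor by construction. For all 10 members the 15 of 291 (5.15%, against 3.28% of all genes) became 6 of 172 within 0.5 Mb (3.49%) and 25 of 549 within 2 Mb (4.55%). It became 36 at 1.5-fold (12.4%, against 9.64% of all genes), 9 of 229 with a floor of 4 CPM (3.93% against 1.33%), 7 of 172 with a floor of 10 CPM (4.07% against 0.927%) and 32 of 291 with listed zeros as 0 (against 8.37%). For Srsf1 the 5 of 25 became 3 of 13 within 0.5 Mb (23.1%), 5 of 42 within 2 Mb (11.9%), 8 at 1.5-fold (32.0%), and 3 of 19 and 3 of 15 with floors of 4 and 10 CPM (15.8% and 20.0%). For Srsf3 the 8 of 35 became 2 of 21 within 0.5 Mb (9.52%) and 4 of 18 with a floor of 10 CPM (22.2%). For the other 8 members the 2 of 231 became 1 of 138 within 0.5 Mb (0.725%), 9 of 452 within 2 Mb (1.99%), 0 of 184 and 0 of 139 with floors of 4 and 10 CPM, 16 at 1.5-fold (6.93%) and 18 with listed zeros as 0 (7.79%). The floor of 10 CPM and the listed zeros were chosen after seeing the data. A difference inside a member's counting interval was not detectable at this depth, and these intervals hold no spread between animals or libraries.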
